A study of Homo sapiens with 15 samples.

Results

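The genes described here are 8 markers of the epicardium and of mesothelium: WT1, TCF21, TBX18, BNC1, UPK3B, MSLN, LRRN4 and SEMA3D. They were chosen by name, each was found by its Ensembl identifier and GENCODE symbol, and they make up 8 of the 48777 genes listed in the bulk RNA-seq tables. Their levels were followed in the human embryonic stem cell line H1, an established line, as its cells differentiated toward heart muscle. No epicardial induction is named in the labels, and whether such genes come on in this protocol, when, and in how many replicates is the question put to the data.

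The epicardium is the mesothelial sheet that covers the heart. It grows from the proepicardium, a cell cluster near the septum transversum, and some of its cells lose their epithelial character, enter the heart wall and become fibroblasts and vascular smooth muscle. WT1, TCF21, TBX18 and BNC1 are transcription factors of this lineage, whereas UPK3B (uroplakin 3B), MSLN (mesothelin) and LRRN4 (a leucine-rich repeat membrane protein) are surface proteins of mesothelial cells, and SEMA3D is a secreted guidance cue made by part of the proepicardium. None of them is exclusive to these cells: WT1 also marks kidney and gonad, TCF21 head muscle and TBX18 somites.

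Cells were sampled on days 0, 4, 9, 11 and 20, from 3 replicates a day, which gave 15 libraries. Day 0 cells were undifferentiated and grown in Nutristem, and every later group was cultured on LN-521 and LN-221, recombinant human laminins, in RPMI with B27. The Wnt pathway was first activated with CHIR99021 and then inhibited with IWP2, and the labels give different days for these steps, so that day 4 cells lay either at or after the start of CHIR99021. The matrix of day 0 is LN-521 and LN-221 in the labels but LN-521 alone in the deposited sample table, so for day 0 the matrix is uncertain, and the methods list day 7 where the labels give day 9. Libraries are named here by day and by the plate in their label: replicates 1, 2 and 3 on day 0, plates 1, 2 and 5 on day 4, plates 2 and 6_1 and a library with no plate number on day 9, plates 2, 5 and 6 on day 11, and plates 2, 2_3 and 6_1 on day 20. All are of 1 cell line.

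Levels are given as the deposited TPM, a transcript abundance that divides reads by gene length and scales every library to the same total. A comparison of TPM between genes depends on the gene lengths used. Changes are given as log2 fold changes from edgeR's quasi-likelihood test on the read counts, with their standard errors (SE). Each comparison used the 6 libraries of its days, and a gene was called changed at a Benjamini-Hochberg adjusted p under 0.05 over all genes tested. Libraries held 11990302 to 33469703 counted reads. The day 20 library of plate 2_3 stood apart: its RNA integrity number was 6.1 against 8.8 to 10.0 elsewhere, and all 300 olfactory receptor genes examined, a family expressed mainly in the nose, had a read in it, at a median of 12.6 reads per kb. That median was 0.957 in the day 20 library of plate 6_1 and 0 in the other libraries. POU5F1, a pluripotency factor, stood at 1259 ± 196 TPM on day 4 and 90.6 ± 27.0 TPM on day 9, whereas LIN28A, an RNA-binding protein of stem cells, still stood at 1653.8 ± 260.6 TPM on day 9 (SD, n = 3).

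The sequences before the gene starts are shown for some of the members. They are TCF21 and BNC1, which rose by day 9, and TBX18, which was higher on day 20 than on day 9. The last is UPK3B, which fell by day 9 and was higher again on day 20. The sequences come from RefSeq (GRCh38.p14), run 5′ to 3′ on the gene's strand and end at the base before the start. Capitals mark any of 5 motifs, searched on both strands. They are the GC box, spelled GGGCGG, and the TATA box, spelled TATAAA. The GATA motif was searched as AGATAA, and the TEAD motif as GGAATG. The T-box motif was searched as AGGTGT. The TCF21 window is chr6:133888863-133889112 on the plus strand, the BNC1 window chr15:83284665-83284914 on the minus strand, the TBX18 window chr6:84764599-84764848 on the minus strand and the UPK3B window chr7:76510302-76510524 on the plus strand.
TCF21: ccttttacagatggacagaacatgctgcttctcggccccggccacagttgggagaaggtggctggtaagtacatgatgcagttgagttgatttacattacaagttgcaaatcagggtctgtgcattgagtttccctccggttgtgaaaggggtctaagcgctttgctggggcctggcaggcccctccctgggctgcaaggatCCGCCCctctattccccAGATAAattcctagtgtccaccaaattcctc
BNC1: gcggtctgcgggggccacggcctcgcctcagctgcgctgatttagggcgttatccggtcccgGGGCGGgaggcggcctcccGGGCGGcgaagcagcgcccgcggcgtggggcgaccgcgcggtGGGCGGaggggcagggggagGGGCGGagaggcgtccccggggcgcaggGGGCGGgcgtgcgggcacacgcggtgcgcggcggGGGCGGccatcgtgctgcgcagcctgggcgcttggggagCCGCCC
TBX18: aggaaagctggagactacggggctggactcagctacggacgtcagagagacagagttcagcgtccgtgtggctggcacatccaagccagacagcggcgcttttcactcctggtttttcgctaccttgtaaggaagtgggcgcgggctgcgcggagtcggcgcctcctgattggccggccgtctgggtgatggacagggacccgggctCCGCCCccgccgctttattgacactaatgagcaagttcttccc
UPK3B: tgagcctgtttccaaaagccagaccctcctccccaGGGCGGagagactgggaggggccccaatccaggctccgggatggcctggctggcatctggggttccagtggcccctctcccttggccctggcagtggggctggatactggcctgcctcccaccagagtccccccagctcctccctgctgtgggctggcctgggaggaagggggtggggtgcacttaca
In these letters BNC1 had 7 GC boxes in 250 bases and a GC content of 81.6%, against a median of 58.0% over 35116 promoter windows. TCF21 had 1 GC box and 1 GATA motif at 52.8% GC, TBX18 had 1 GC box at 61.6%, and UPK3B had 1 GC box at 67.7%. Of all the windows, 42.6% held a GC box, 9.17% a GATA motif, 10.7% a TATA box, 11.9% a TEAD motif and 9.57% a T-box motif. The window of WT1 (chr11:32435565-32435789, minus strand) also held 1 GC box, and that of SEMA3D (chr7:85187057-85187306, minus strand) held none of the motifs. An E-box (CANNTG, not capitalised) stood 3 times in the TCF21 window, 2 times in that of WT1 and 1 time each in those of BNC1 and UPK3B, and 61.8% of all windows held one. A letter match is not evidence of binding, and no window was matched for MSLN or LRRN4. Where several windows were listed, 2 for BNC1 and 4 for WT1, only the first was used.

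The genes lie on 6 chromosomes of GRCh38 (GENCODE v44). WT1 is at chr11:32387775-32435564 and BNC1 at chr15:83255884-83284664, both on the minus strand. TCF21 is at chr6:133889113-133895553 on the plus strand and TBX18 at chr6:84687351-84764598 on the minus strand. UPK3B is at chr7:76510525-76516522 and MSLN at chr16:760734-768865, both on the plus strand, and LRRN4 at chr20:6040546-6054060 and SEMA3D at chr7:84995553-85187056, both on the minus strand. Exons of TCF21 overlap those of TARID, a noncoding RNA on the opposite strand, over 863 bases, and those of WT1 overlap WT1-AS over 47 bases. The sources used here do not say whether counting used the strand, so reads there cannot be assigned to 1 of the pair. Of the 50-base stretches of UPK3B's exons, 9.74% also occur in other genes, its pseudogene UPK3BP1 among them, and how the counting treated such reads is not stated.

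In the stem cells and on day 4 the transcription factors WT1, TCF21 and TBX18 were at or near 0. On days 0 and 4 each library held 0 to 4 reads of WT1, 0 to 4 of TCF21 and 0 to 2 of TBX18. BNC1 had 7 to 46 reads and LRRN4 13 to 47, which corresponds to means of 0.760 ± 0.388 and 1.53 ± 0.497 TPM on day 0 (SD, n = 3). UPK3B, MSLN and SEMA3D also had reads in every stem cell library. UPK3B stood at 9.05, 18.1 and 9.88 TPM in day 0 replicates 1, 2 and 3, the highest mean of the 8 genes on that day. SEMA3D stood at 8.57, 5.77 and 3.64 TPM and MSLN at 2.13, 0.910 and 1.37 TPM in the same libraries.

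Between day 0 and day 4 no member passed the test. WT1, TCF21 and TBX18 fell below the filter on low counts and were not tested, and of the 5 tested genes 0 were called by edgeR, as were 0 by DESeq2. Over all 20964 genes tested the called share was 0.00%, with 741 genes at an unadjusted p under 0.05. UPK3B, at 5.54, 6.31 and 7.86 TPM on day 4, was below every day 0 library, with a log2 fold change of −0.98 ± 0.29 (SE, edgeR unadjusted p = 0.00693 and adjusted p = 0.885). Overlap between days was counted on CPM (reads scaled by library with edgeR's TMM factors), and UPK3B was the 1 tested member of 5 whose libraries did not overlap, against 10.0% of all genes. The other tested members had log2 fold changes from −0.89 (BNC1) to 0.52 (MSLN) and adjusted p-values from edgeR of 0.885 to 0.959.

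By day 9 the picture had changed. TCF21 rose from near 0, BNC1 and LRRN4 rose from low levels to much higher ones, TBX18 rose to a low level, MSLN rose slightly and UPK3B fell. Of the 7 genes tested, 5 were called higher on day 9 than on day 4, where 24.3% of all 21252 genes tested were, and 1 was called lower, where 24.7% were. The libraries of the days did not overlap for 6 of the 7, against 60.0% of all genes, and the median log2 fold change was 5.10 against 0.01 over all genes. In bulk RNA a larger share of cells that express a gene and more RNA of it per cell cannot be told apart.

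TCF21, a basic helix-loop-helix factor needed for epicardium-derived fibroblasts, stood at 0, 0.148 and 0 TPM on day 4 (plates 1, 2 and 5) and at 6.50, 6.44 and 7.13 TPM on day 9 (plate 2, plate 6_1 and no plate number). Every day 9 library lay far above every day 4 library, and the spread within day 9 was small. The log2 fold change was 7.15 ± 0.62 (SE, edgeR adjusted p = 6.22e-05). Its size rests on 0, 4 and 0 reads on day 4, and across alternative settings it lay between 2.88 and 10.62.

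BNC1, a zinc finger factor of mesothelial and other epithelia, stood at 0.352, 0.525 and 0.439 TPM in the day 4 libraries. On day 9 it stood at 36.1, 81.5 and 33.1 TPM. The library of plate 6_1 was the highest, and none of day 9 came near those of day 4. BNC1 rose with a log2 fold change of 6.83 ± 0.42 (SE, edgeR adjusted p = 1.78e-05).

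LRRN4 stood at 0.897, 2.00 and 1.63 TPM on day 4 and at 58.7, 63.3 and 119 TPM on day 9. Here the library with no plate number was the highest, the one in which BNC1 and WT1 were lowest. The log2 fold change was 5.80 ± 0.42 (SE, edgeR adjusted p = 3.94e-05). LRRN4 and BNC1 together made up 83.2% to 90.4% of the summed TPM of the 8 genes in the day 9 libraries, against 8.84% to 13.3% on day 4.

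TBX18, a T-box repressor of the proepicardium and sinus horn, stood at 0.0143, 0.0396 and 0.0191 TPM on day 4 and at 1.12, 0.951 and 0.543 TPM on day 9. It was above every day 4 library but 34 to 47 reads per library placed it among the weakly expressed genes. The log2 fold change was 5.10 ± 0.53 (SE, edgeR adjusted p = 0.000124), a ratio to 1, 2 and 1 reads, and across alternatives it ranged from 0.86 to 5.54.

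WT1, a zinc finger factor of the epicardium, did not pass the count filter for days 4 and 9 and has no test there. It stood at 0, 0.0408 and 0.118 TPM on day 4 and at 0.689, 11.1 and 0.164 TPM on day 9. A single library, plate 6_1, carried 250 of its reads, against 14 and 5 in the others. The days did not overlap, but the lowest day 9 value lay close to the highest of day 4.

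Of the mesothelial surface genes, UPK3B fell by 3.15 ± 0.40 on the log2 scale (SE, edgeR adjusted p = 0.000343), from the day 4 values above to 1.22, 0.688 and 0.356 TPM. It moved opposite to LRRN4, a marker of the same cell type. MSLN, the mesothelin gene, stood at 2.42, 2.16 and 1.90 TPM on day 4 and at 3.22, 3.88 and 3.69 TPM on day 9. Its log2 fold change of 0.74 ± 0.23 (SE, edgeR adjusted p = 0.0241) was small, and the call was lost under 7 of 15 alternatives, with adjusted p-values of 0.0523 to 0.192. SEMA3D, at 4.91, 7.77 and 7.00 TPM on day 4 and 2.59, 6.09 and 4.38 TPM on day 9, overlapped between the days (log2 fold change −0.59 ± 0.28, SE, edgeR adjusted p = 0.113).

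**Figure D1:**
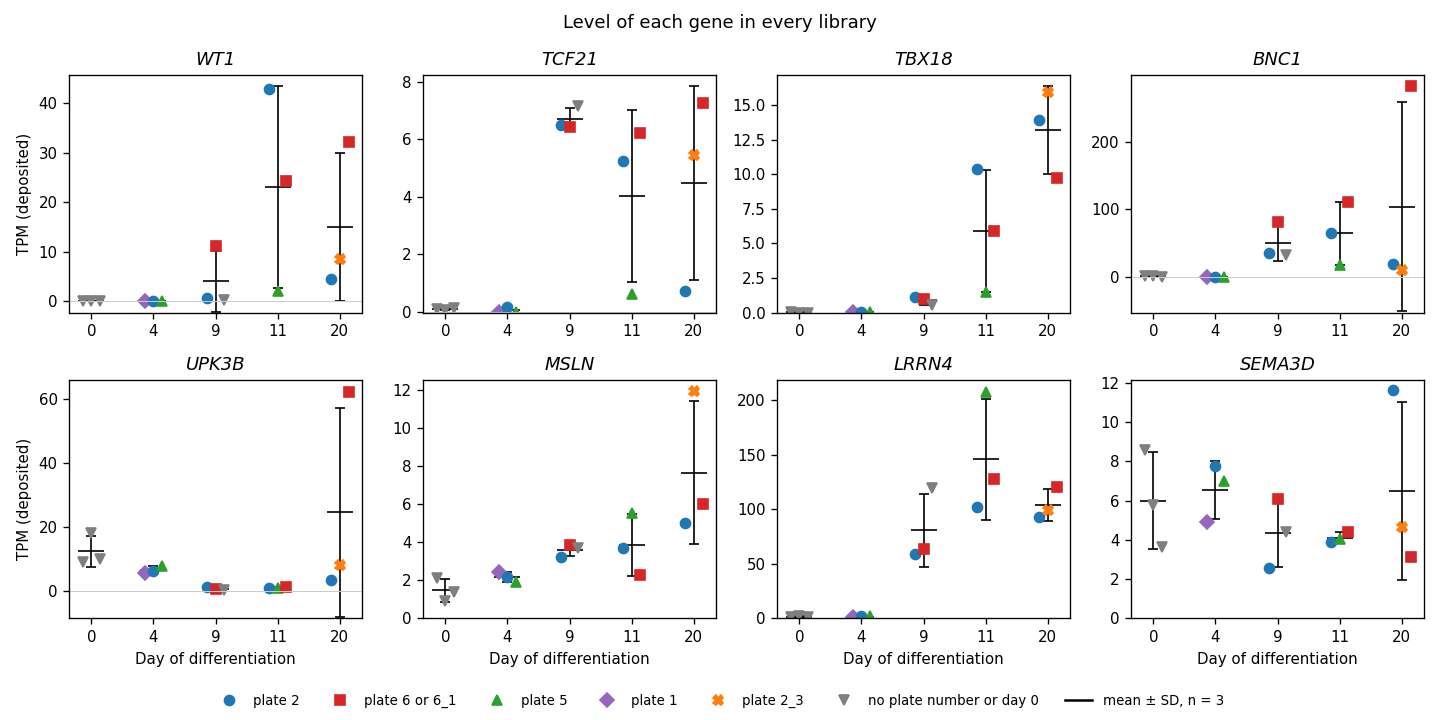
Each panel plots the deposited TPM of 1 gene (linear y axis, scaled per gene) against the day of differentiation, with a point per library marked by plate and a bar at the mean ± SD of 3 libraries. TCF21, BNC1 and LRRN4 are lower in every library of days 0 and 4 than on day 9, TBX18 has its highest mean on day 20 at 13.2 TPM, and WT1, BNC1 and UPK3B spread widely between the libraries of days 11 or 20.

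Other gene groups of the heart-forming region were read in the same comparison, from lists written with earlier results of these data known. Of 13 tested regulators of the septum transversum and lateral plate, 13 rose from day 4 to day 9, with a median log2 fold change of 7.85. HAND2 rose by 10.37 ± 0.45 on the log2 scale (SE, edgeR adjusted p = 4.27e-06), and GATA4 by 9.78 and GATA6 by 9.70. Of 15 tested genes of epithelial-mesenchymal transition and mesenchyme, 13 rose and 1, THY1, fell. SNAI2, a repressor of E-cadherin that acts in that transition, rose from 0.514 ± 0.406 to 120.15 ± 18.7 TPM (SD, n = 3). PDGFRA, a growth factor receptor of cardiac mesoderm and later of fibroblasts, rose from 2.73 ± 0.585 to 585 ± 355 TPM (SD, n = 3).

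A list of 20 further epicardial and mesothelial markers was split. Of the 17 tested, 7 rose and 2 fell, and the median log2 fold change was −0.19. KRT19, a keratin of simple epithelia, rose from 253 ± 32.8 to 2169.6 ± 93.8 TPM (SD, n = 3), and LRP2, an endocytic receptor, rose from 6.00 ± 1.48 to 73.2 ± 27.2 TPM. ITLN1, a lectin made by mesothelium, had 0 reads in every day 4 library and 19 to 49 on day 9. PDPN, the podoplanin gene, fell from 340.3 ± 13.8 to 28.9 ± 1.498 TPM, and ITGA4, an integrin needed for epicardial attachment, fell from 4.82 ± 0.761 to 0.278 ± 0.137 TPM (SD, n = 3). KRT19 is also made by endoderm and LRP2 by kidney, so neither marks the epicardium alone.

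Lists for other tissues that use the same factors were read against the 24.3% of all genes called higher and the 24.7% called lower in this comparison. Of 12 kidney and gonad markers 7 were tested, 4 rose (among them OSR1, LHX1 and SIX2) and 1, NPHS1, fell. Of 8 markers of head muscle and somites 7 were tested, 5 rose (among them UNCX and TBX1) and 2, MSC and TCF15, fell. Of 8 yolk sac and liver endoderm genes tested 7 rose, of 10 cardiomyocyte genes 7, of 7 endothelial genes 3 with 1 lower, and of 8 smooth muscle genes 5, while 6 of 6 pluripotency genes fell. On day 9 the summed level of the 12 kidney and gonad genes was 286, 109 and 281 TPM, and that of the 8 head muscle and somite genes 32.2, 68.1 and 21.8 TPM, in the libraries of plate 2, plate 6_1 and no plate number. Most of the first sum was 1 gene, SALL1, at 209 ± 97.5 TPM on day 9 (SD, n = 3), so the sum mainly follows that gene. WT1 was highest in the library where the first sum was lowest and the second highest. The part of other tissues in these levels was not tested.

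From day 9 to day 11 WT1 and TBX18 had the largest log2 fold changes of the 8 genes, but no member passed the test. All 8 were tested and 0 were called by edgeR, where 1.39% of all genes were called higher and 1.00% lower, and 3517 genes had an unadjusted p under 0.05. DESeq2 called 1 member, TBX18. By CPM the libraries did not overlap between these days for 1 member, TBX18, against 24.1% of all genes, and by TPM TCF21 did not overlap either.

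TBX18 stood at 10.3, 1.501 and 5.87 TPM on day 11 (plates 2, 5 and 6), each above the highest day 9 value of 1.12 TPM. The library of plate 5 was the lowest and lay just above day 9. The log2 fold change was 2.71 ± 0.68 (SE, edgeR unadjusted p = 0.00503 and adjusted p = 0.0972). Without the plate 5 library it was 3.18 and passed (edgeR adjusted p = 0.0179).

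WT1 stood at 42.8, 2.01 and 24.3 TPM on day 11. The 3 libraries ranged over 21.3-fold, and the lowest lay below the day 9 library of plate 6_1. The log2 fold change was 2.57 ± 1.43 (SE, edgeR adjusted p = 0.424), but 5.73 without the day 9 library of plate 6_1 and 1.79 to 3.12 without any 1 of the others. WT1-AS, on the opposite strand, had 184, 6 and 93 reads in the same libraries, in the order of WT1. Its day 9 reads, 8, 33 and 0 (plate 2, plate 6_1 and no plate number), also followed that order. On day 20 they did not: WT1-AS had 9, 100 and 66 reads and WT1 117, 136 and 588 (plates 2, 2_3 and 6_1).

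TCF21 stood at 5.24, 0.593 and 6.21 TPM on day 11. It was close to its day 9 level on plates 2 and 6 and far below it on plate 5 (log2 fold change −0.78 ± 0.69, SE, edgeR adjusted p = 0.628). BNC1, at 65.1, 17.8 and 111 TPM, was again lowest on plate 5 (log2 fold change 0.36 ± 0.62, SE, edgeR adjusted p = 0.828). LRRN4 was not: it stood at 102, 207 and 127 TPM, highest on plate 5 (log2 fold change 0.79 ± 0.36, SE, edgeR adjusted p = 0.322). UPK3B stayed low at 0.961, 0.869 and 1.20 TPM, MSLN stood at 3.68, 5.54 and 2.30 TPM and SEMA3D at 3.87, 4.04 and 4.42 TPM. In that order the log2 fold changes were 0.40, 0.03 and −0.11, with edgeR adjusted p-values of 0.746, 0.978 and 0.884.

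**Figure D2:**
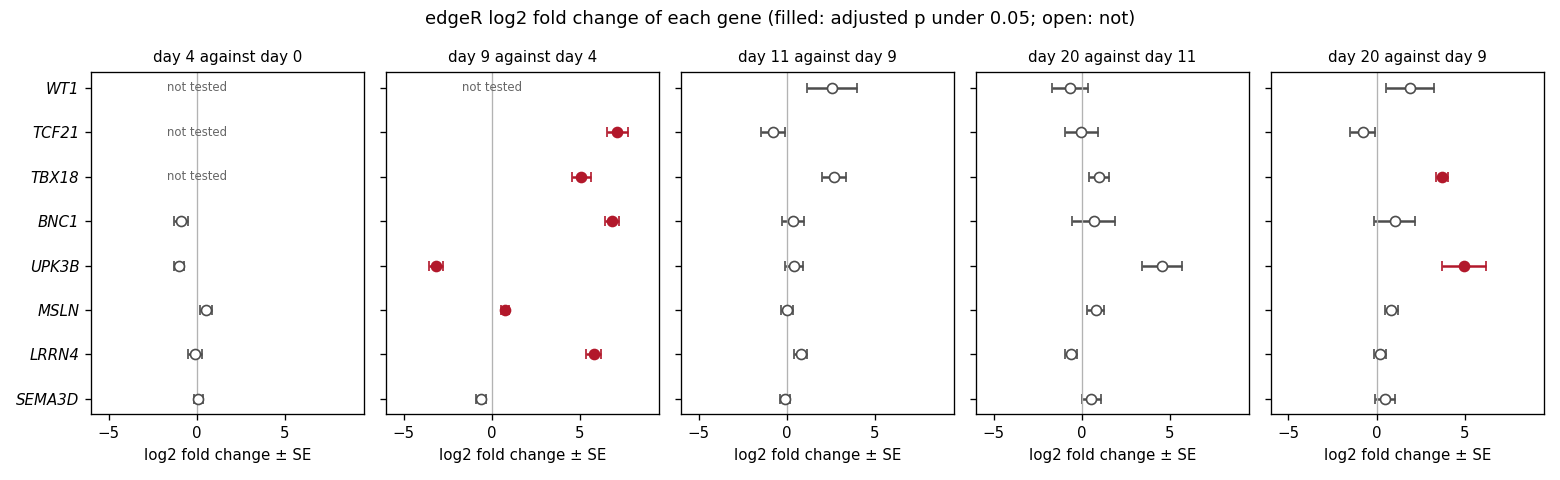
The panels give, for 5 comparisons of days, the edgeR log2 fold change of each gene (x axis, first day against second) with its standard error, filled where the adjusted p was under 0.05 and open where it was not. Filled points stand in 2 panels: 6 genes for day 9 against day 4, and TBX18 and UPK3B for day 20 against day 9.

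The later step, day 11 to day 20, again gave 0 calls among the 8 members by edgeR and 0 by DESeq2, which returned no p-value for UPK3B. Over all genes 1.12% were called higher and 0.435% lower, and 3564 had an unadjusted p under 0.05. UPK3B was the 1 member whose libraries did not overlap, against 22.4% of all genes. It stood at 3.27, 8.24 and 62.3 TPM on day 20 (plates 2, 2_3 and 6_1), with a log2 fold change of 4.57 ± 1.13 over day 11 (SE, edgeR unadjusted p = 0.00366 and adjusted p = 0.0925). The library of plate 6_1 carried 738 of its reads, against 54 and 86 in the others, and without it the log2 fold change was 2.16 (edgeR adjusted p = 0.133).

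Set against day 9, which shares its day 20 libraries with the comparison just given, 2 members were higher on day 20. They were TBX18 and UPK3B, 2 of 8 tested where 6.72% of all 21207 genes were called higher, and 0 were lower, where 3.31% were. The libraries did not overlap for 3 members, these and MSLN, against 35.0% of all genes.

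TBX18 stood at 13.9, 15.96 and 9.73 TPM on day 20. Every one of these lay above the highest day 9 value of 1.12 TPM, and plate 6_1 was the lowest library by TPM, whereas plate 2_3 was by CPM (17.8 against 20.9). The log2 fold change was 3.73 ± 0.36 (SE, edgeR adjusted p = 0.00383), and the call held under every alternative run, with values from 2.91 to 3.96. Without the plate 2_3 library it was 3.73 as well (edgeR adjusted p = 0.00615).

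UPK3B was higher on day 20 than on day 9 with a log2 fold change of 4.96 ± 1.253 (SE, edgeR adjusted p = 0.0484). The call stood close to the threshold, and 9 of 15 alternatives ended it. Without the plate 6_1 library the log2 fold change was 2.501 (edgeR adjusted p = 0.0823), and without that of plate 2_3 it was 5.43 (adjusted p = 0.0353). Without any 1 of the day 9 libraries the adjusted p from edgeR was 0.153 to 0.204.

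The other 6 genes were not called between days 9 and 20. WT1 stood at 4.58, 8.43 and 32.1 TPM (log2 fold change 1.91 ± 1.35, SE, edgeR adjusted p = 0.407), and its log2 fold change was 0.42 without the day 20 library of plate 6_1 and 4.98 without the day 9 library of plate 6_1. TCF21 stood at 0.708, 5.43 and 7.25 TPM, with plate 2 far below the others (log2 fold change −0.79 ± 0.70, SE, edgeR adjusted p = 0.510). BNC1 ranged over 26.4-fold, from 19.4 and 10.7 TPM on plates 2 and 2_3 to 282.5 TPM on plate 6_1. Its log2 fold change was 1.04 ± 1.16 (SE, edgeR adjusted p = 0.608) with all libraries and −1.96 (adjusted p = 0.0813) without plate 6_1, so the direction was set by that library. LRRN4 stood at 92.5, 98.9 and 119.8 TPM, or 64.9, 35.1 and 81.7 CPM (log2 fold change 0.20 ± 0.35, SE, edgeR adjusted p = 0.767). MSLN stood at 5.00, 11.97 and 6.03 TPM and SEMA3D at 11.6, 4.68 and 3.12 TPM, with adjusted p-values from edgeR of 0.213 and 0.634.

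Ordered by mean level, the genes peaked on different days. WT1 had its highest mean on day 11 (23.03 ± 20.4 TPM, SD, n = 3), then day 20 (15.04 ± 14.9) and day 9 (3.99 ± 6.18), and these neighbours overlapped. TCF21 had its highest on day 9 (6.69 ± 0.387), ahead of day 20 (4.46 ± 3.38), which overlapped it, and day 11 (4.02 ± 3.00), which overlapped day 20 but lay below every day 9 library. TBX18 ran from day 20 (13.2 ± 3.17) to day 11 (5.90 ± 4.42) to day 9 (0.873 ± 0.298), and days 11 and 9 did not overlap. BNC1 had means of 104 ± 154, 64.8 ± 46.8 and 50.2 ± 27.1 TPM on days 20, 11 and 9, all overlapping. LRRN4 peaked on day 11 (146 ± 55.2 TPM), with day 20 (104 ± 14.3) and day 9 (80.5 ± 33.8) overlapping as neighbours. UPK3B was the exception in shape, with 24.6 ± 32.7 TPM on day 20, 12.3 ± 4.99 on day 0, 6.57 ± 1.18 on day 4, and 1.01 ± 0.171 and 0.754 ± 0.435 on days 11 and 9. SEMA3D kept to means between 4.11 and 6.56 TPM and its days overlapped in every neighbouring pair of the order.

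The replicates of a day did not share 1 epicardial level, and the same libraries stood out in several genes. On day 11 the library of plate 5 was the lowest in WT1, TCF21, TBX18, BNC1 and UPK3B, and the highest in LRRN4 and MSLN. Relative to the mean of day 11 on the log2(CPM + 0.5) scale, WT1 lay 2.5 below, TCF21 1.8 below, and TBX18 and BNC1 1.5 below in it. UPK3B lay only 0.14 below, on 12 reads against 15 and 20 in plates 2 and 6. On day 20 the library of plate 6_1 was the highest in WT1, TCF21, BNC1, UPK3B and LRRN4. It was the lowest in TBX18 and SEMA3D by TPM, but by CPM the library of plate 2_3 was the lowest in both. The summed TPM of the 8 genes was 522.8 in the plate 6_1 library, against 151.0 and 164.3 in the other day 20 libraries. Its day 20 mean was 279 with the plate 6_1 library and 158 without it. On day 11 the sum was 233.6, 239.8 and 283.1 TPM (plates 2, 5 and 6), so by the sum plate 5 was not the lowest. LRRN4 alone made up 86.5% of the plate 5 sum.

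Marker lists of other cell types moved with these libraries. The summed level of the 10 cardiomyocyte genes was 7285, 23409 and 5555 TPM on day 11 (plates 2, 5 and 6), highest where 5 members were lowest, UPK3B only slightly. On day 20 it was 27762, 28436 and 6869 TPM (plates 2, 2_3 and 6_1), lowest where 5 members were highest. The 16 mesenchyme genes ran the other way, with 4362, 2339 and 7723 TPM on day 11 and 3830, 2303 and 23237 TPM on day 20. The 9 endoderm genes summed to 2117, 998 and 3116 TPM on day 11 and to 18273, 743 and 21754 TPM on day 20. Day 9 did not show the opposite order of cardiomyocyte genes and members. There the cardiomyocyte sum was 704, 1719 and 435 TPM (plate 2, plate 6_1 and no plate number). It was highest in plate 6_1, where WT1, BNC1, MSLN and SEMA3D were highest too. The mesenchyme sum of day 9 was 2792, 4573 and 3481 TPM, also highest in plate 6_1. Every gene of the cardiomyocyte, mesenchyme and endoderm lists had a read in each of the 6 libraries of days 11 and 20. The part of cell composition in the members' spread was not tested.

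**Figure D3:**
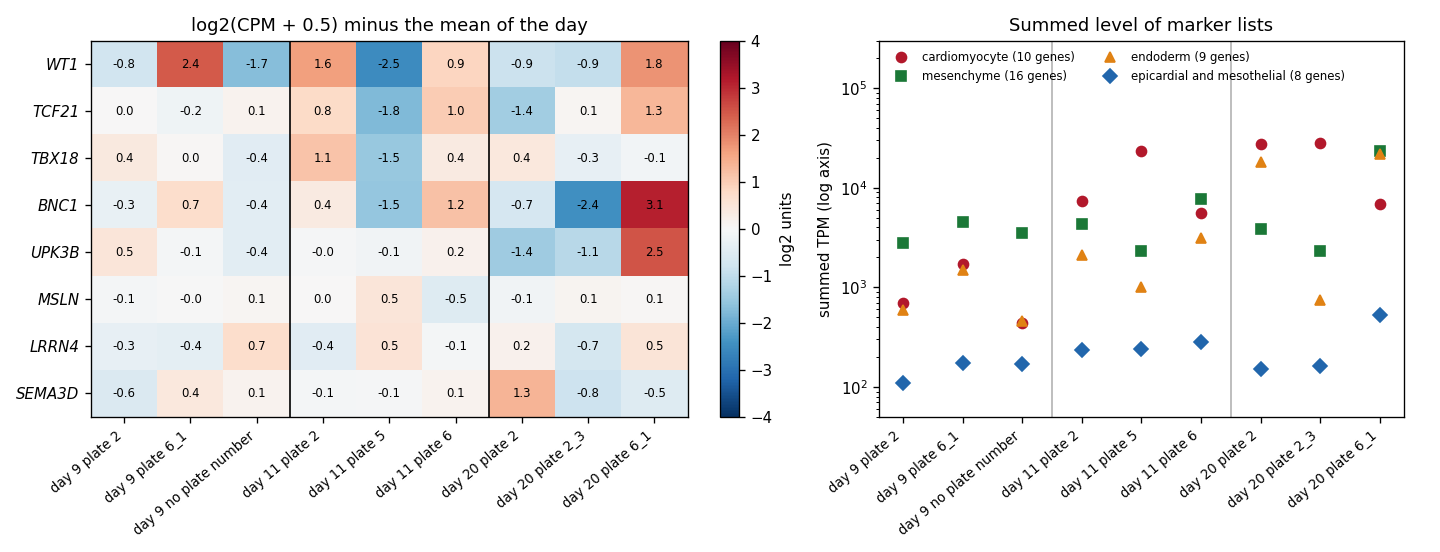
The left panel shows, for the 9 libraries of days 9, 11 and 20, each gene's log2(CPM + 0.5) minus the mean of its day, and the right panel the summed TPM of 4 gene lists in the same libraries on a log axis. Day 11 plate 5 is low for WT1, TCF21, TBX18 and BNC1 and has the highest cardiomyocyte sum of its day. Day 20 plate 6_1 is high for WT1, TCF21, BNC1 and UPK3B and has the lowest cardiomyocyte sum of its day. By contrast, day 9 plate 6_1 is high for WT1 and BNC1 and has the highest cardiomyocyte sum of its day.

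In the day 20 library of plate 2_3 some members lay near the level of silent genes. Per kb of gene length it held 21.3 reads of TCF21, 18.4 of SEMA3D, 32.3 of UPK3B, 33.1 of WT1, 41.9 of BNC1 and 46.9 of MSLN. The olfactory receptor median was 12.6. The highest TPM of MSLN, 11.97, was in this library. TBX18, at 62.6 reads per kb, and LRRN4, at 387.8, stood further above it. At the olfactory receptor median a gene of TCF21's length would have 57.5 reads there, against the 97 counted. TARID, whose exons overlap TCF21, had 121 reads in that library and at most 50 in any other.

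**Figure D4:**
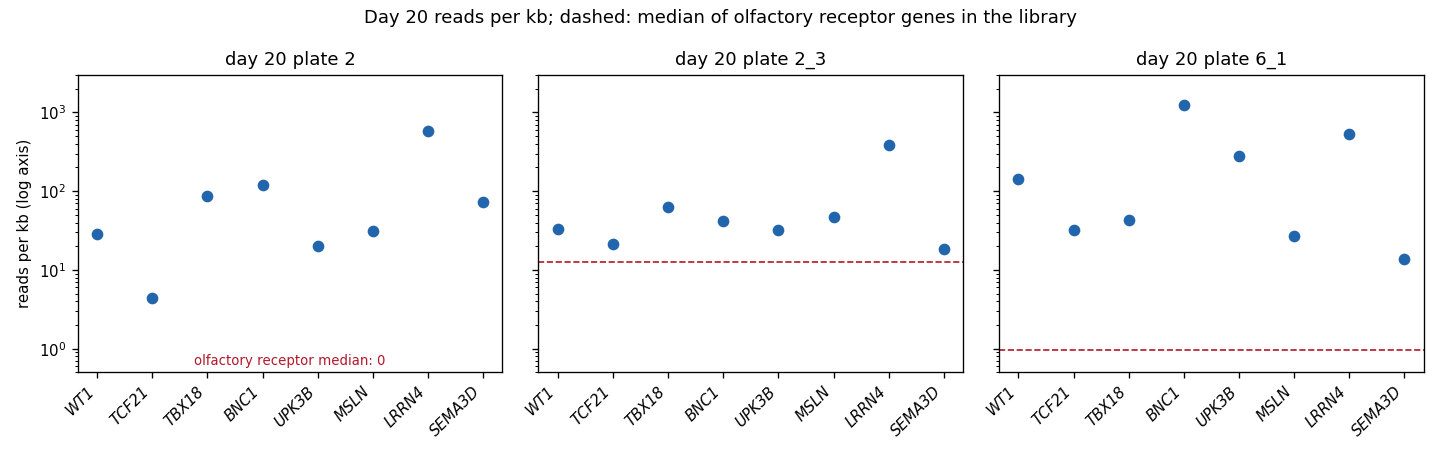
Each panel gives the reads per kb (log axis) of the 8 genes in 1 day 20 library, with a dashed line at the median of 300 olfactory receptor genes in that library. In plate 2_3 the line stands at 12.6 reads per kb, near SEMA3D and TCF21, whereas in plate 2 the median is 0.

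Sequencing lanes 1, 2 and 5 each held a library of days 4, 9, 11 and 20, so the main changes can be read within lanes. From day 4 to day 9 TCF21, TBX18, BNC1, LRRN4, MSLN and WT1 were higher, and UPK3B and SEMA3D lower, in 3 of 3 lanes. The difference in log2(CPM + 0.5) was 3.74, 4.00 and 4.31 for TCF21, and 5.42, 6.57 and 5.55 for BNC1, in lanes 1, 2 and 5. From day 9 to day 20 TBX18 was higher by 2.71, 2.83 and 4.08 and UPK3B by 4.88, 1.81 and 1.83. WT1 between the same days differed by 4.68, −1.27 and 2.96, so its direction changed between lanes.

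The genes whose profile over the 15 libraries was most like each member were listed by Pearson's r of log2(CPM + 0.5), among 14696 genes with a mean of at least 1 CPM. The points are libraries of 5 days, so r mostly follows the day. WT1 was most like MAB21L2 (r = 0.973), RUNX2 (0.967) and AKR1B15 (0.963). TCF21 was most like P2RY6 (r = 0.983), SNAI2 (0.962) and PDZRN4 (0.957), and TBX18 like RNF150 (0.969), FTCD (0.965) and CDKN2B (0.964). BNC1 was closest to CAPN2 (r = 0.986), FKBP7 (0.986) and DAB2 (0.984), and LRRN4 to TNRC18 (0.992), WNT5A (0.991) and ADAMTS9 (0.989). UPK3B paired with RAB33A (r = 0.951), COL8A2 (0.941) and TMEM151A (0.926), which were likewise low on days 9 and 11. MSLN was most like DNAI4 (r = 0.944), CCR10 (0.942) and PYROXD2 (0.935). SEMA3D had no close match, with FBXO22 (r = 0.842), FAM216A (0.841) and WEE1 (0.831) the nearest. MAB21L2, a regulator of the list above and the nearest to WT1, stood at 54.6, 155 and 114 TPM on average on days 9, 11 and 20, against 1.36 and 1.31 TPM on days 0 and 4.

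The related lists were also read after day 9, against the shares over all genes given above. Of 16 further epicardial and mesothelial markers tested between days 9 and 11, 1 rose and 1 fell, with a median log2 fold change of −0.39. ALDH1A1, an enzyme of retinoic acid synthesis, rose from 1.37 ± 1.83 TPM on day 9 to 50.2 ± 18.3 TPM on day 11 (SD, n = 3, log2 fold change 5.23 ± 0.90, SE, edgeR adjusted p = 0.0352). The complement gene C3 fell by 2.17 ± 0.42 on the log2 scale (SE, edgeR adjusted p = 0.0488). Between days 11 and 20, 1 of 18 tested rose and 0 fell. This was CFI, complement factor I, at 0.0303 ± 0.0266 TPM on day 11 and 4.31 ± 2.98 TPM on day 20 (SD, n = 3, edgeR adjusted p = 0.0309). Its highest day 20 value was that of plate 2_3, the library with reads in silent genes. Of the 16 mesenchyme genes 0 were called between days 9 and 11 or between days 11 and 20. Between days 9 and 20, 3 rose (DCN, POSTN and ZEB1) and 2 fell (PDGFRA and TWIST1). Over all genes 6.72% rose and 3.31% fell between those days. Smooth muscle genes, a fate of epicardial cells but also of other mesoderm and shared with early heart muscle, gave 4 of 8 higher on day 11 than on day 9, where 1.39% of all genes were, among them ACTA2, LMOD1 and MYH11. ACTA2 stood at 22.1 ± 23.9 TPM on day 9 and 399 ± 122 TPM on day 11 (SD, n = 3). In the same comparison 7 of 10 cardiomyocyte genes were called higher. The summed smooth muscle level on day 11 was 788, 1339 and 900 TPM (plates 2, 5 and 6). It was highest on plate 5, as was the cardiomyocyte sum, where WT1, TCF21, TBX18 and BNC1 were lowest. Which cells made the smooth muscle genes was not tested.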

How the data were processed

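Bulk RNA-seq of H1 cells on days 0, 4, 9, 11 and 20 (3 biological replicates each, total RNA depleted of ribosomal RNA, TruSeq stranded kit) was analysed. The authors used STAR 2.5.2b with GRCh38 and Ensembl release 79 for alignment and featureCounts 1.5.1 for gene counting, took out the genes of ribosomal RNA and of the mitochondrion, and deposited raw counts. The authors also deposited TPM computed from these counts, and the sources used here do not name the gene length. Lengths implied by counts and TPM, scaled by the median over protein-coding genes, differed unevenly from exon lengths in GENCODE v44. They were 2692 against 4864 bases for LRRN4 and 4113 against 8133 for WT1. For BNC1 they were 4797 against 4902, and for TCF21 4551 against 3679. Other deposited values are, per sample, a score (RNA integrity number), a fraction (reads mapped uniquely) and the sequencing lane. Totals were 11990302 to 33469703 counts per library, with a median of 22867831, and depth sets the precision of genes with few reads.

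Days were taken from the labels. The tests of counts ran in edgeR 4.0.16 under R 4.3.3, after filterByExpr (count 10, total 15) and TMM scaling, as robust quasi-likelihood fits on the 6 libraries of each pair of days, two-sided, with Benjamini-Hochberg adjustment at 0.05. The standard error is the size of the log2 fold change divided by the square root of F. The scripts were tested on simulated data. Alternatives were DESeq2 1.42.0, other scalings and filters, all 15 libraries in one fit, limma 3.58.1 on log2(TPM + 1) or log2(TPM + 0.1), plate or lane as a block, a fold threshold, and each replicate left out. For TPM they were the median and a rescaling without rows under 200 bases. Symbols and coordinates come from GENCODE v44 and promoters from RefSeq GRCh38.p14, which matched 6 of the 8 genes. All 8 genes were named, with genes past the threshold from the lists (at most the 3 largest increases and decreases per list) and the 3 most alike genes of each member, and 1 gene that this rule names is not reported here. The members, lists and rules were chosen with earlier results of these data known. Single-cell libraries and other assays were not analysed here.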

Additional observations from a re-analysis of the deposited data

How the results depend on the processing

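Of 228 values of single genes under alternatives, 202 kept their direction and their side of the threshold, 16 lost significance, 5 gained it and 5 reversed. The number of members called for day 9 against day 4 and for day 4 against day 0 stayed within 1.5 times of 6 and of 0 under all alternatives run. The members behind that number could change. With low counts kept, SEMA3D was called lower on day 9 than on day 4 (log2 fold change −0.60, edgeR adjusted p = 0.0356). MSLN was not called there (edgeR adjusted p = 0.0718). For day 11 against day 9, where edgeR called 0, it was 1 with DESeq2 and 1 with all 15 libraries in one fit (TBX18 in both), and 0 to 1 with each replicate left out. For day 20 against day 11 it was 1 (UPK3B) with all 15 libraries. For day 20 against day 9, where edgeR called 2, it was 1 with DESeq2, with library-size scaling, with low counts kept, with genes under a mean of 1 CPM removed, and with limma on log2(TPM + 1), and 1 to 2 with each replicate left out. BNC1, day 20 against day 9, reversed from a log2 fold change of 1.04 to −0.21 and −0.24 with limma on log2(TPM + 1) and log2(TPM + 0.1) and to −0.56 with the lane as a block, and ranged from −1.96 to 1.59 with each replicate left out. The cause was not tested. WT1, untested for day 9 against day 4, had a log2 fold change of 6.13 ± 2.39 (SE, edgeR adjusted p = 0.168) without the filter on low counts and an adjusted p of 0.00504 from DESeq2 and 0.0222 from edgeR with all 15 libraries. DESeq2 gave no p for UPK3B, day 20 against day 11, nor for UPK3B, WT1 and BNC1, day 20 against day 9, so its count of 1 there is no loss of the UPK3B call.

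Whether plate numbers pair the samples is not settled by these data. After removal of each day's mean, same-plate libraries correlated across genes at −0.19 to 0.41. Libraries of different plates correlated at −0.499 to 0.371, so the ranges overlap. With the replicate block (plate), 3 members (TBX18, BNC1 and LRRN4) were called higher for day 11 against day 9. Over all 20679 genes tested this block called 1171 higher and 800 lower, against 288 and 207 without it. Only plates 2 and 6 held libraries of both days, so day 11 plate 5, the discordant library, did not inform that contrast. For day 20 against day 9, 1 member was called, where 356 of 21207 genes were higher and 121 lower, and BNC1 reversed to −0.26. The plate block was not run for days 4 and 0, nor for days 9 and 4, and the lane block could not be fitted for days 4 and 0. Depth limits WT1, TCF21 and TBX18 on days 0 and 4, where each library held 0 to 4 reads of each gene.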

Other observations

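TMEM151A, COL8A2 and RAB33A were picked as the genes most like UPK3B over these libraries, so a dip in the middle of the series follows from that choice. TMEM151A stood at mean levels of 5.90 and 8.03 TPM on days 0 and 4, 0.351 and 0.410 TPM on days 9 and 11, and 24.0 TPM on day 20. COL8A2 stood at 14.4, 16.3, 2.54, 2.31 and 37.3 TPM on days 0, 4, 9, 11 and 20.

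PRG4, the lubricin gene of joint and mesothelial surfaces, was close to 0 before day 20, at 0.191 ± 0.0819 TPM on day 11 (SD, n = 3). On day 20 it stood at 2.91 ± 4.36 TPM (SD, n = 3), from 0.160 TPM (5 reads) to 7.94 TPM (157 reads) per library. HAS1, a hyaluronan synthase, stood at 1.13 ± 0.729 TPM on day 11 and 8.84 ± 7.13 TPM on day 20 (SD, n = 3), and MUC16, a mesothelial mucin, at 0.210 ± 0.141 and 1.74 ± 2.39 TPM. MUC16 ranged from 0.162 TPM (44 reads) to 4.48 TPM (771 reads) between the day 20 libraries. The highest day 20 value of PRG4, HAS1 and MUC16 was each time that of plate 2_3. In that library silent genes also had reads, at an olfactory receptor median of 12.6 per kb. These genes were named after their values were seen, and none of them was called between days 11 and 20.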
